A study of Homo sapiens with 4 samples.

Results

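The minus-strand binding sites of the mitochondrial DNA (mtDNA) are the 38 sites, of 2341 in the 4 lists of the series and of 157 on the mtDNA, that lie on the strand read as light-strand RNA. They were chosen by chromosome and strand alone, whatever gene a list gave them. The GTPBP8 lists held 7, 6 and 11 of them in replicates 1, 2 and 3, and the AUH list held 14. They were set against the 103 plus-strand mtDNA sites outside the ribosomal RNA genes RNR1 and RNR2, of which 13, 12 and 13 were in the GTPBP8 lists and 65 in the AUH list. RNR1 and RNR2 themselves held the remaining 16 mtDNA sites, all on the plus strand, and were left aside.

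The libraries are fPAR-CLIP libraries of HEK293 T-REx cells, a human embryonic kidney line with doxycycline-inducible transgenes. In 3 biological replicates the cells expressed GTPBP8::FLAG, the tagged human homolog of the bacterial ribosome assembly GTPase EngB, and in 1 library they expressed AUH::V5, a mitochondrial enoyl-CoA hydratase family enzyme that also binds RNA. Both arms received 50 ng/ml doxycycline for 48 h, 100 µM 4-thiouridine (4SU) for 16 h and 312 nm UV light for 5 min, so that no library lacks transgene expression, 4SU or UV, and no untagged library was analysed here. According to the methods of the study, both proteins were stably expressed, and the GTPBP8::FLAG cells were grown from picked colonies as clonal lines. The overexpressed proteins were pulled down from whole-cell lysates with Flag or V5 beads before RNase T1 digestion. A crosslinked 4SU base shows up as C in place of T, and the converted share of a site is the share of its reads that carry at least one such T-to-C conversion. The lists gave no site under 5 reads for GTPBP8 or under 4 reads for AUH, so that the lack of a listed site is not a lack of reads. Total site reads were 402701, 627603 and 403172 for GTPBP8 and 9684 for AUH, and the AUH list is therefore far shallower.

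Both strands of the circular human mtDNA are transcribed almost end to end. Transcription of the light-strand RNA starts in the non-coding control region and runs through the tRNA gene TRNP and ND6 and on around the circle, so that it yields ND6, a complex I subunit and the single light-strand mRNA, a minority of the tRNAs, and long stretches that are antisense to the heavy-strand mRNAs and rRNAs. These antisense stretches have no known coding role and are normally removed by mitochondrial RNA decay. Sites were therefore grouped as ND6, light-strand tRNA, control region, or antisense to a heavy-strand gene.

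The sequences of the places on which the comparisons turn are given 5′ to 3′ on the minus strand of GRCh38, in lower case with T in capitals, since T marks the positions at which 4SU can be converted. The first 4 were listed in more than 1 GTPBP8 library and are shown as the stretch those libraries share, and the next pair were each listed in 1 GTPBP8 replicate, as the widest minus-strand site and as the only GTPBP8 site that touches a light-strand tRNA. The last 5 were listed only for AUH and include ND6, TRNP and the control region site with most reads.
ND1 antisense, chrM:3889-3938: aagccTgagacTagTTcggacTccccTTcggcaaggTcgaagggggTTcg
ND1 antisense, chrM:4029-4065: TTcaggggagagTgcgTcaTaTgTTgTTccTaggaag
ND2 antisense, chrM:5012-5049: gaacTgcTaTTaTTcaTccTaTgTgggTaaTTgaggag
ATP8 antisense, chrM:8375-8413: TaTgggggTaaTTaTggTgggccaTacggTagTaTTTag
ND1 antisense, chrM:3312-3459: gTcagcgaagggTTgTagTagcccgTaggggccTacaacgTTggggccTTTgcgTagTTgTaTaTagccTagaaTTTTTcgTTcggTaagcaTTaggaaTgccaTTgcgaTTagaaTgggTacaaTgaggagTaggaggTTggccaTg
TRNW antisense and TRNA, chrM:5549-5605: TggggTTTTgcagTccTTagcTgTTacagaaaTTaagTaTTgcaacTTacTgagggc
TRNP, chrM:15966-16007: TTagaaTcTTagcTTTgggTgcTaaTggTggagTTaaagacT
Control region, chrM:342-382: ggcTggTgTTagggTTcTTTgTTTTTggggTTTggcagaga
ND6, chrM:14241-14296: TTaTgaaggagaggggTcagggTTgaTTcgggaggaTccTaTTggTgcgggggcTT
ND6, chrM:14364-14398: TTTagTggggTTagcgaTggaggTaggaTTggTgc
ND6, chrM:14542-14569: cggTgTggTcgggTgTgTTaTTaTTcTg

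The 2 proteins had their minus-strand sites in different places. Merging sites that overlapped by at least 1 nt gave 32 places, of which 18 held GTPBP8 sites, 14 held AUH sites and 0 held both. On the plus strand, 9 places held sites of both proteins, among 19 places for GTPBP8 and 57 for AUH. Of the GTPBP8 minus-strand sites, 0 of 7, 0 of 6 and 0 of 11 overlapped an AUH site, against 10 of 13, 7 of 12 and 7 of 13 on the plus strand (76.9%, 58.3% and 53.8%). The mean difference was -63.0 ± 12.2 percentage points (SD, n = 3 libraries), lower on the minus strand in each library (exact two-sided sign-flip test, p = 0.25, the smallest that 3 libraries allow). With 14 AUH minus-strand sites against 65 on the plus strand, there were also fewer AUH sites to overlap. Together they were 558 nt long on the minus strand and 2762 nt on the plus strand. The GTPBP8 sites were also shorter on the minus strand, as given below. The part of site number and length in the difference was not tested, nor whether 0 overlaps differ from what these lengths would give.

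Most AUH minus-strand sites lay outside the stretch of the circle that held the GTPBP8 minus-strand sites. All 24 GTPBP8 minus-strand sites fell between 3312 and 11719, from near the start of ND1 to within ND4. Of the AUH minus-strand sites, 1 of 14 fell in this span, at COX2, and the other 13 lay between ND5 and the control region, the part of the light-strand RNA nearer to its start. The span was set by the GTPBP8 sites themselves, so the counts are a description. The 14 AUH sites hold 188 reads and come from the lone AUH library, and a stretch without an AUH site is not one without AUH reads. On the plus strand, 26 of 38 GTPBP8 sites (68.4%) and 39 of 65 AUH sites (60.0%) lay in the same span.

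**Figure D1:**
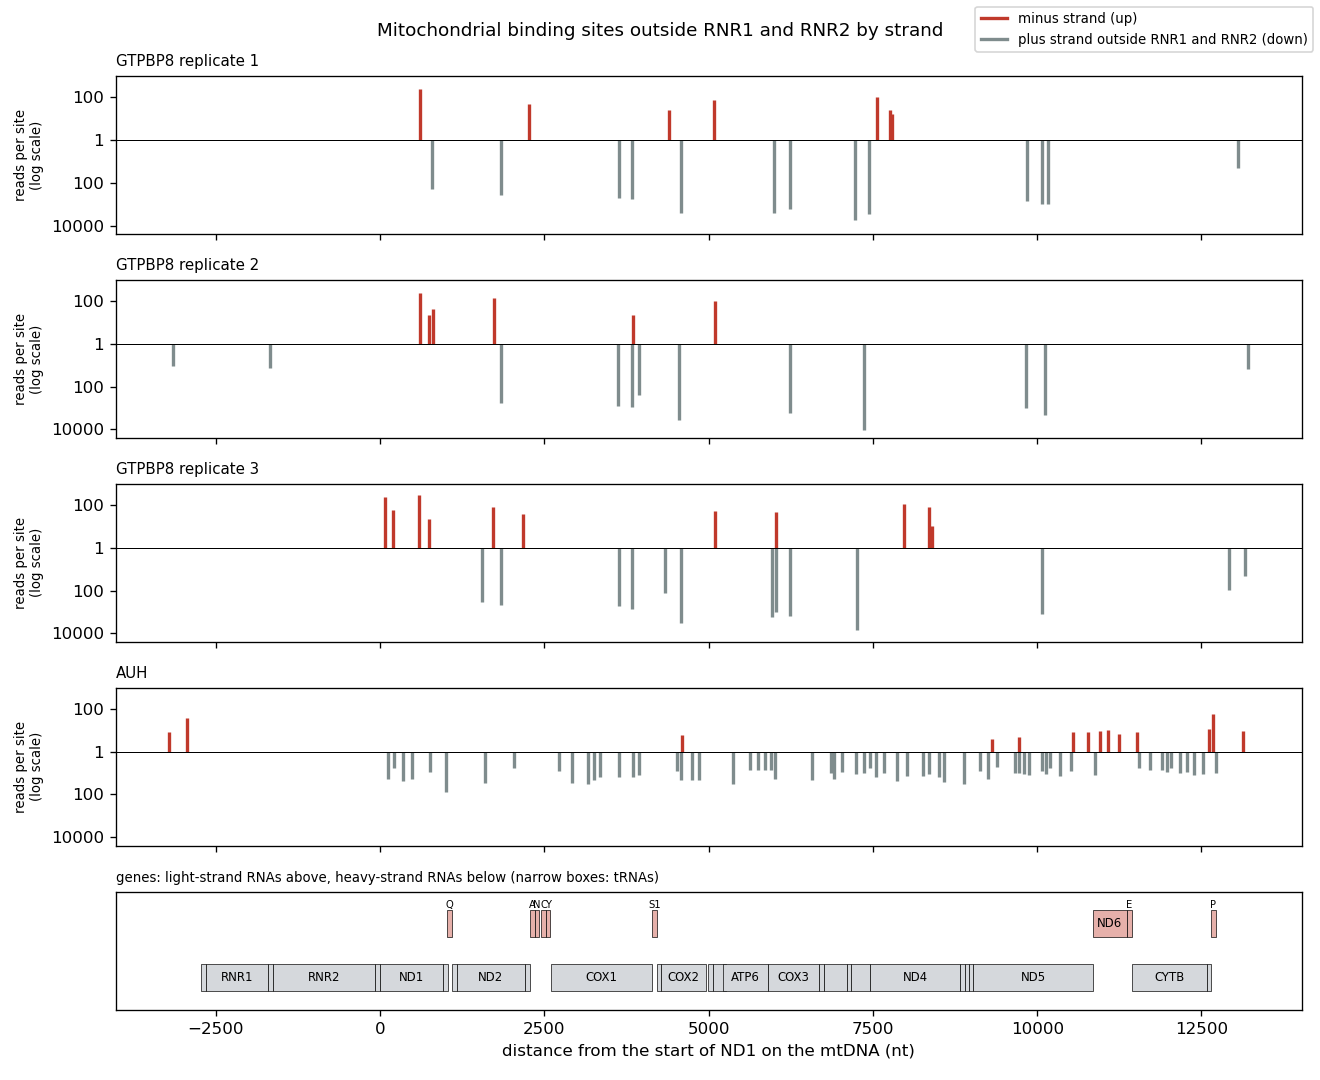
Binding sites outside RNR1 and RNR2 along the mtDNA (x axis, distance from the start of ND1 in nt) in the 4 libraries, with minus-strand sites drawn upwards and plus-strand sites downwards by their reads (log scale), above the genes of each strand. The 24 GTPBP8 minus-strand sites lie between ND1 and ND4, while 13 of 14 AUH minus-strand sites lie from ND5 to the control region.

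The places also differed in kind. ND6 held 0 GTPBP8 sites in each of the 3 replicates and 3 AUH sites, with 9, 10 and 7 reads at 14241-14296, 14364-14398 and 14542-14569. The 26 ND6 reads were 13.8% of the AUH minus-strand reads. ND6 was thus listed for AUH alone, at read numbers near the minimum of its list. ND6 spans 14149 to 14673, and it, the light-strand tRNA genes and the control region are each a small part of the mtDNA. Whether the site counts there differ from what these lengths would give was not tested.

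Of the 8 light-strand tRNA genes, TRNP (proline) was listed for AUH with 57 reads at 15966-16007, the AUH minus-strand site with most reads (30.3% of them) and one of high converted share (89.5%). TRNA (alanine) was touched by 1 GTPBP8 site, in replicate 1, with 48 reads at 5549-5605. Of that site 19 nt lay in TRNA and 31 nt antisense to the neighbouring TRNW (tryptophan), so it could be counted in either group. Its converted share was 27.1%, the lowest of the 7 minus-strand sites of that library. TRNQ, TRNN, TRNC, TRNY, TRNS1 and TRNE, the other light-strand tRNA genes, had no minus-strand site in any of the 4 lists.

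The control region held 0 GTPBP8 minus-strand sites and 3 AUH sites, with 8 reads at 80-118, 38 reads at 342-382 and 9 reads at 16416-16458. The site at 342-382 was the second by reads among the AUH minus-strand sites and was rich in T (41.5% of its bases). The remaining 7 AUH sites were antisense to COX2, ND5 (4 sites), CYTB and TRNT, with 4 to 11 reads each and 50 reads together.

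Antisense sites were 85.7%, 100.0% and 100.0% of the GTPBP8 minus-strand sites and 50.0% of the AUH sites. By reads they were 91.2%, 100.0% and 100.0% in GTPBP8, a mean of 97.1% ± 5.09 (SD, n = 3 libraries), and 26.6% in AUH. AUH lay below every GTPBP8 replicate in both shares (exact two-sided permutation test over the 4 libraries, p = 0.25 for each, the smallest that 3 libraries against 1 allow). Heavy-strand genes cover most of the mtDNA, so antisense is also by far the largest of the groups by length. The shares were not set against these lengths, and a high antisense share is therefore not by itself a trait of the GTPBP8 sites.

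Among the GTPBP8 sites, the RNA antisense to ND1, which encodes a core subunit of complex I, held the most reads. ND1 antisense sites had 252, 296 and 608 reads in replicates 1, 2 and 3, or 46.3%, 51.9% and 58.5% of the minus-strand reads. ND1 itself was listed on the plus strand in replicate 1 alone, with 204 reads against 252 on the antisense strand. Replicates 2 and 3 listed no plus-strand ND1 site, which is not a lack of reads, so the strands cannot be compared by reads there. AUH listed 5 ND1 sites with 74 reads on the plus strand and none on the minus strand.

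A single place held the most ND1 antisense reads in each replicate, all of them in replicate 1 and 296 of 608 in replicate 3. At 3889-3938, within ND1, the replicates had 252, 231 and 296 reads, that is 626, 368 and 734 reads per 1000000 site reads (CPM). The site of replicate 2 was longer by 1 nt at both ends, and that of replicate 3 began at 3856. The mean was 576 ± 188 CPM (SD, n = 3 libraries), and the converted share was 65.9%, 55.4% and 64.5%, near that of the plus-strand sites described below. This was the minus-strand site with most reads in each GTPBP8 replicate.

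The ND1 antisense place also held the longest inverted repeat among the minus-strand sites. Its arms read CCCCTTCG and CGAAGGGG with 7 nt between them, and both lie inside the stretch shared by the 3 replicates. Among GTPBP8 sites, 1 minus-strand and 1 plus-strand site per library had arms of 8 nt, so that such repeats were found on both strands. The match is one of letters alone, and whether the RNA folds there was not tested. In replicate 1, a nuclear site on chromosome 1 (629080 to 629105, minus strand, 5 reads) matched this sequence with 2 mismatches. The mitochondrial place held 252 reads in that library. Reads of near-identical copies can be split by alignment, and whether that happened here was not tested.

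The second place listed in every replicate was antisense to ATP8, a small ATP synthase subunit. At 8375-8413 it had 75, 108 and 52 reads, or 186, 172 and 129 CPM (mean 162 ± 29.8, SD, n = 3 libraries). Its start was the same in all 3 lists and its end ranged from 8413 to 8420. The ATP8/ATP6 locus had no GTPBP8 site on the plus strand in any replicate, while AUH had 4 plus-strand sites with 54 reads there and none on the minus strand. The converted share was 45.3%, 38.9% and 51.9%, below that of the ND1 antisense place in each replicate.

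A further pair of places was listed in replicates 2 and 3 only. Antisense to ND1 at 4029-4065 the reads were 23 and 22, and antisense to ND2, another complex I subunit, at 5012-5049 they were 144 and 85. The ND2 place thus held 25.3% of the minus-strand reads in replicate 2 and 8.17% in replicate 3, where a second ND2 site at 5463-5512 added 40 reads.

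The other 14 GTPBP8 places were listed in 1 replicate each. They included the widest minus-strand site, antisense to the start of ND1 at 3312-3459, with 231 reads in replicate 3, and its neighbour at 3466-3550 with 59. ND4, a complex I subunit, had antisense sites in replicates 1 and 3 but at different positions. In replicate 1 they lay at 10846-10893 (101 reads), 11054-11084 (25 reads) and 11087-11118 (17 reads). In replicate 3 they lay at 11249-11297 (117 reads), 11632-11682 (81 reads) and 11690-11719 (10 reads). The single sites antisense to the cytochrome oxidase genes had 22 reads (COX1, replicate 2), 26 reads (COX2, replicate 1) and 47 reads (COX3, replicate 3), and an ND1 antisense site at 4089-4128 had 42 reads in replicate 2.

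Single-replicate places thus held 39.9%, 11.2% and 56.2% of the minus-strand reads in replicates 1, 2 and 3. Sites that overlapped a site of another GTPBP8 replicate were 2 of 7, 4 of 6 and 4 of 11 on the minus strand (28.6%, 66.7% and 36.4%). On the plus strand they were 11 of 13, 8 of 12 and 9 of 13 (84.6%, 66.7% and 69.2%). The minus strand was lower in replicates 1 and 3 and equal in replicate 2, with a mean difference of -29.6 ± 28.2 percentage points (SD, n = 3 libraries, exact two-sided sign-flip test, p = 0.5). The difference was -4.58 without replicate 1 and -45.9 without replicate 2, so that it depended on which replicate was left out. Minus-strand sites also had fewer reads and were shorter, as given below, and the part of depth and of length in the overlap was not tested.

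Set against the mRNA strand locus by locus, antisense reads were few outside ND1 and ATP8/ATP6. The ratio of minus-strand to plus-strand site reads was 0.244 and 0.157 at ND2 in replicates 2 and 3. It was 0.0167 and 0.0304 at ND4L/ND4 in replicates 1 and 3, where the plus strand had 8557 and 6846 reads. At COX1, COX2 and COX3 it was 0.0117, 0.0103 and 0.0109 in the replicate with an antisense site. ND5 had 2682, 3177 and 1265 plus-strand reads in GTPBP8 and no antisense site, whereas AUH had 25 antisense reads beside 121 plus-strand reads there. The locus with most mRNA-strand reads, ND4L/ND4, was therefore not the one with most antisense reads.

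**Figure D2:**
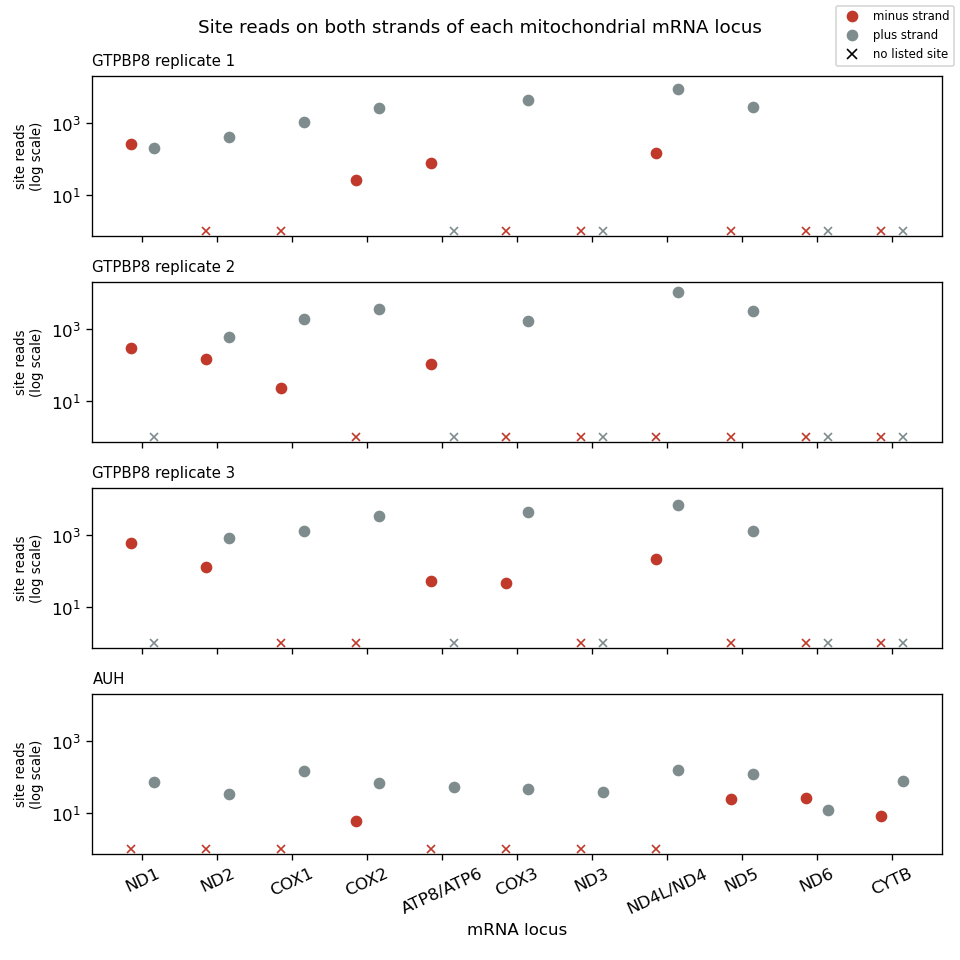
Site reads (log scale) on the minus strand and the plus strand of each mitochondrial mRNA locus in the 4 libraries, with a cross where the list holds no site. At ND1 the minus strand lies above the plus strand in every GTPBP8 replicate (252 against 204 reads in replicate 1), while at ND4L/ND4 it lies far below or has no site.

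In each GTPBP8 replicate, 1 minus-strand site faced a plus-strand site in the list of the same library, 3 of 24 in all. The plus-strand site had 28.9 times the reads at ND4 in replicate 1 (2914 against 101), 39.3 times at COX1 in replicate 2 (864 against 22) and 21.7 times at COX3 in replicate 3 (1022 against 47). In these 3 pairs the minus-strand site had the lower converted share, at 33.7%, 36.4% and 44.7% against 53.8%, 61.2% and 64.9%. Of the AUH sites 4 of 14 faced a plus-strand site, with 3.5, 2.0, 1.0 and 0.75 times their reads. The plus-strand sites outside the rRNAs were together 1227, 1300 and 888 nt long in GTPBP8 replicates 1, 2 and 3 and 2762 nt in AUH. Whether the numbers of facing sites differ from what these lengths would give was not tested. With the plus-strand sites of all 4 lists, 10 of 24 GTPBP8 sites had a site opposite them. The ND1 antisense place at 3889-3938 and the ATP8 antisense place, both listed in every GTPBP8 replicate, faced no plus-strand site in any list.

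The minus strand held 544, 570 and 1040 site reads in GTPBP8 replicates 1, 2 and 3 and 188 in AUH, beside 19650, 21336, 17929 and 942 on the plus strand outside the rRNAs. As a share of both this was 2.69% (95% Wilson interval 2.48% to 2.93%), 2.60% (2.40% to 2.82%) and 5.48% (5.17% to 5.82%) for GTPBP8 and 16.6% (14.6% to 18.9%) for AUH. These intervals cover counting error only, since reads include PCR copies, and replicate 3 lay outside the intervals of the other GTPBP8 replicates. The AUH share was 4.63 times the GTPBP8 mean of 3.59% ± 1.64 (SD, n = 3 libraries) and above every replicate (exact two-sided permutation test, p = 0.25, the smallest allowed). The AUH reads used here are converted reads over the converted fraction. The column of total reads in the AUH list was 3 times this number at 3 of the 14 minus-strand sites, those of ND6, and at 58 of the 65 plus-strand sites, and equal to it at 11 and 3 sites. At the remaining plus-strand sites it was 6, 7 or 9 times this number. Why the columns differ is not known, and with the deposited totals the AUH share was 7.91%, still above the replicates. Since the lysates are bulk samples and no matched RNA library was used here, more of an RNA and more binding per molecule cannot be told apart, nor can fewer cells holding an RNA and less of it per cell.

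Counted as sites, the order was the reverse. Minus-strand sites were 35.0%, 33.3% and 45.8% of the mtDNA sites outside the rRNAs in GTPBP8 (mean 38.1% ± 6.79, SD, n = 3 libraries) and 17.7% in AUH (exact two-sided permutation test, p = 0.25, the smallest allowed). The lists differ in how small a site they can hold: the minimum of 4 reads in AUH is 0.354% of its reads outside the rRNAs, and the minimum of 5 reads in GTPBP8 is 0.0248%, 0.0228% and 0.0264%. Keeping only sites at or above 0.354% in every library left 3 of 15, 3 of 12 and 5 of 17 GTPBP8 sites on the minus strand, each a larger share than in AUH. The mean was then 24.8% ± 4.71 (SD, n = 3 libraries), which is 7.08 percentage points above AUH, a gap similar to that between the replicates themselves (exact two-sided permutation test, p = 0.5).

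Single minus-strand sites were small in GTPBP8. Their median was 48, 75 and 59 reads in replicates 1, 2 and 3, with ranges of 17 to 252, 22 to 231 and 10 to 296. The plus-strand medians were 1002, 824.5 and 695 reads, with ranges of 20 to 5643, 11 to 10522 and 20 to 6846. The ranges overlapped at their low ends, but the minus-strand median was 0.0479, 0.0910 and 0.0849 of the plus-strand median, a mean log2 fold of -3.80 ± 0.51 (SD, n = 3 libraries, exact two-sided sign-flip test, p = 0.25, the smallest allowed). In AUH the medians were 8 and 11 reads, a ratio of 0.727, and the AUH log2 fold of -0.46 lay above each GTPBP8 value (exact two-sided permutation test of the 4 libraries, p = 0.25). The AUH ratio depended on which reads and sites were used, at 0.236 (log2 -2.08) with the deposited AUH totals and 1.63 (log2 0.71) with sites of at least 10 reads, and its log2 value stayed above each GTPBP8 value in both. The AUH values are close to the minimum of that list, which bounds how far a median can fall.

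**Figure D3:**
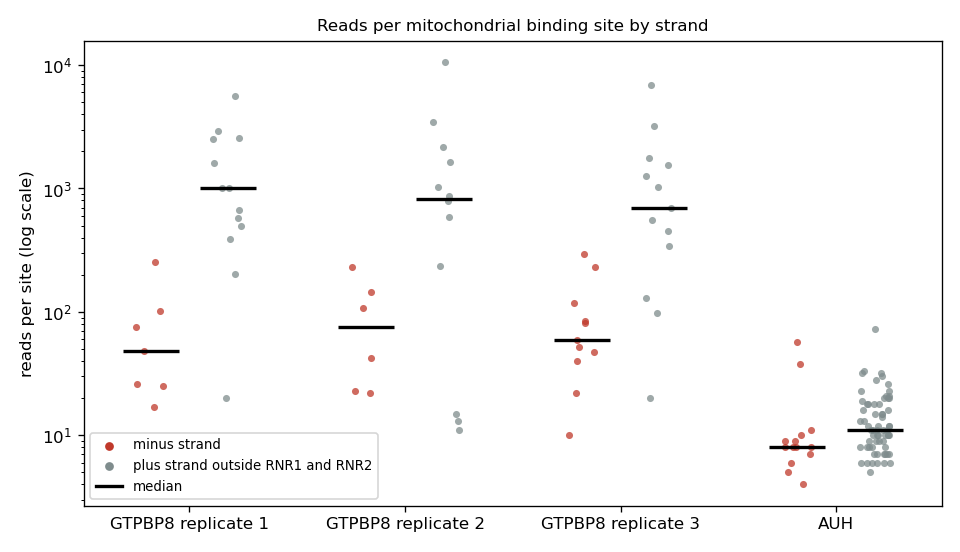
Reads per site (log scale) for minus-strand and plus-strand mtDNA sites outside RNR1 and RNR2 in each library, with 1 point per site and a bar at the median. The GTPBP8 minus-strand medians of 48, 75 and 59 reads lie below the plus-strand medians of 1002, 824.5 and 695, while the AUH medians are 8 and 11.

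The converted share was also lower on the minus strand in GTPBP8. Over all reads of the sites it was 51.7%, 48.2% and 53.2% on the minus strand and 60.6%, 59.3% and 62.5% on the plus strand. The difference of -9.79 ± 1.11 percentage points (SD, n = 3 libraries) had the same sign in every replicate (exact two-sided sign-flip test, p = 0.25, the smallest allowed). Site by site the minus-strand values were spread more widely, from 27.1% to 68.0%, 36.4% to 55.4% and 30.0% to 64.5%. Over all reads, the nuclear sites of these libraries showed a smaller gap in the same direction, at 62.0% ± 1.05 on the minus strand and 67.3% ± 1.89 on the plus strand (SD, n = 3 libraries). By the median of the site shares, the nuclear values were 88.3% ± 2.26 and 89.2% ± 2.33, with replicate 3 higher on the minus strand. The mtDNA difference by that measure was -13.4 ± 4.00 percentage points (SD, n = 3 libraries). The part of a strand difference common to the whole list was not tested. In AUH the converted share was 74.5% on the minus strand and 72.6% on the plus strand, a difference of 1.89 percentage points in the other direction, which became -2.61 when the median of the site shares was taken and 9.24 with sites of at least 10 reads.

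**Figure D4:**
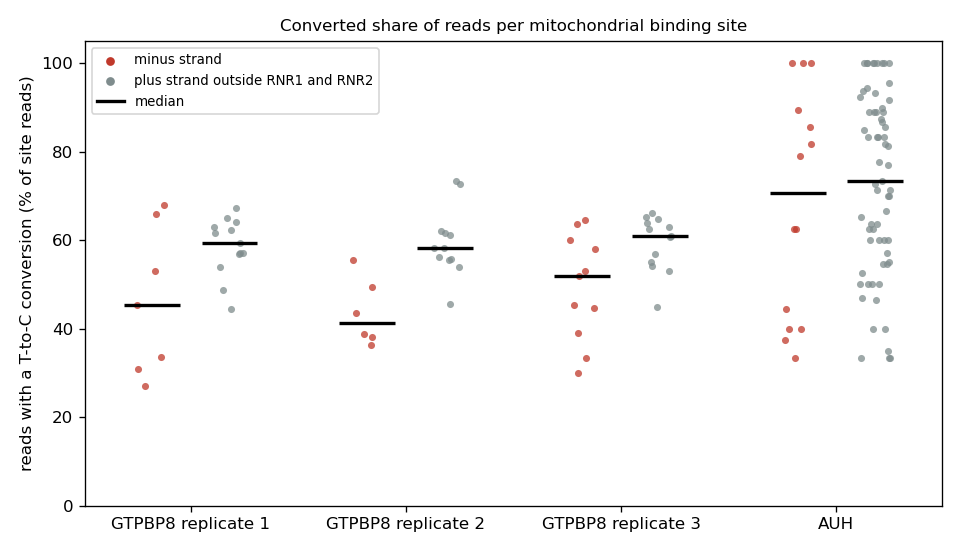
Share of reads with a T-to-C conversion at each minus-strand and plus-strand mtDNA site outside RNR1 and RNR2, with 1 point per site and a bar at the median. In GTPBP8 the minus-strand medians of 45.3%, 41.2% and 51.9% lie below the plus-strand medians of 59.4%, 58.2% and 61.0%, and in AUH the medians are 70.7% and 73.3%.

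The strands also differed in base composition. G made up 33.0% ± 2.55 of the GTPBP8 minus-strand site bases and 12.7% ± 0.0814 of the plus-strand site bases (SD, n = 3 libraries), and 36.0% and 11.8% in AUH. C was the reverse, with 12.0% ± 0.951 and 33.2% ± 0.886 in GTPBP8. This is the known strand bias of the mtDNA, whose heavy strand is rich in G and has the same letters as light-strand RNA, and it holds for any RNA from this strand. T, the base at which 4SU is incorporated, made up 29.4%, 28.5% and 28.5% of minus-strand bases and 25.5%, 25.9% and 24.8% of plus-strand bases. The T share was higher on the minus strand by 3.42 ± 0.655 percentage points (SD, n = 3 libraries, exact two-sided sign-flip test, p = 0.25, the smallest allowed). Weighted by reads, as the converted share is, the difference was 1.64 ± 1.71 percentage points (SD, n = 3 libraries). Of single T readings in GTPBP8, 8.40%, 6.98% and 8.50% were converted on the minus strand and 10.6%, 9.70% and 10.7% on the plus strand.

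**Figure D5:**
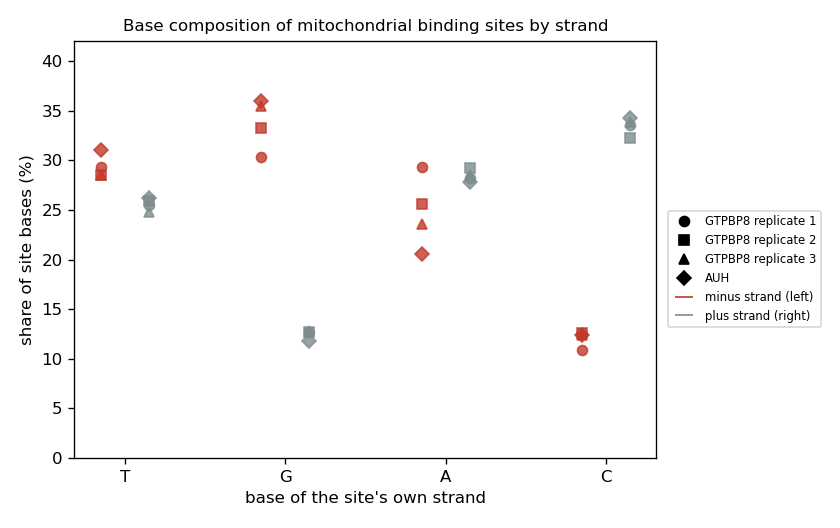
Base composition of the mtDNA site sequences on the minus strand (left of each pair) and the plus strand outside RNR1 and RNR2 (right), with 1 symbol per library and each base read on the site's own strand. G lies at 30.4% to 36.0% on the minus strand and at 11.8% to 12.8% on the plus strand, and C shows the reverse.

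RNase T1 cuts after G, and the last base of a site was G at 19 of 24 minus-strand and 23 of 38 plus-strand GTPBP8 sites. In AUH it was G at 5 of 14 and 7 of 65 sites. The column of the GTPBP8 lists that gives the share of reads ending in G was 13.1%, 9.65% and 10.2% on the minus strand and 54.2%, 52.5% and 53.7% on the plus strand. It was split in the same way at the nuclear sites, at 10.1% ± 1.12 and 58.0% ± 2.36 (SD, n = 3 libraries), although their last base was G about as often on both strands (413 of 745 and 429 of 765 sites). The column thus differs by strand throughout the lists, and it was not used to compare the mitochondrial strands.

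Minus-strand GTPBP8 sites were shorter, with median lengths of 46, 46.5 and 50 nt against 81, 69 and 59 nt, whereas both medians were 40 nt in AUH. Each distinct read sequence was seen 1.37, 1.49 and 1.27 times on the minus strand and 1.47, 1.51 and 1.44 times on the plus strand of the GTPBP8 libraries. At their lower read numbers, the minus-strand sites thus showed no more copies per sequence, and the part of depth in this ratio was not tested.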

How the data were processed

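fPAR-CLIP sites were taken from 4 lists, 3 of GTPBP8::FLAG and 1 of AUH::V5. For GTPBP8 the authors used Bcl2fastq (2.17.1 in the submitters' processing notes), Cutadapt, PARpipe and PARalyzer on hg38 and deposited sites called per library, with unnormalized counts of reads, distinct sequences and conversions and with fractions of converted reads. The deposited PARalyzer mode score was not used. In the AUH list the authors deposited converted reads (estimated counts), the converted fraction and a column of total reads, which from its values appears multiplied at most annotated sites, though not at TRNP. AUH sites came from a caller not given in the sources used here. For each of them, reads were computed as converted reads over the fraction and rounded.

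Starts were moved by 1 nt to 1-based GRCh38 positions, after which all 923 bases common to AUH and GTPBP8 mtDNA sites were equal. Genes came from the RefSeq table (GRCh38.p14), which has no strand column, so strands follow the known light-strand genes. Sequences came from the lists. An inverted repeat was the longest exact complementary pair of arms of at least 4 nt with a loop of at least 3 nt, and nuclear matches allowed 2 mismatches without gaps. Depth is the total of site reads per library. The Wilson intervals, given for the minus-strand share of reads only, rest on the mtDNA site reads outside the rRNAs.

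Each library gave 1 value, and comparisons used exact two-sided sign-flip tests over the GTPBP8 libraries or exact permutation tests over the 4 libraries, both with a smallest p of 0.25. Where the 3 GTPBP8 differences share a sign, the sign-flip p is 0.25 whatever their spread. The permutation p compares the AUH library with each GTPBP8 library taken as the single one. The lone AUH library gives no spread of its own. Places were named where at least 2 libraries listed them or where they were among the 10 with most reads. The other named sites were chosen after their values were seen. The members, lists and tests were chosen with earlier results of these data known. Alternatives were other read measures, denominators, minimums and overlaps, and each GTPBP8 replicate left out. The overlaps and the repeat search were tested on simulated data, and the sign-flip and permutation tests on a fixed example each. Tests used scipy 1.17.1 and numpy 2.4.6, tables pandas 2.3.3 and plots matplotlib 3.10.9, under Python 3.11.15.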

Additional observations from a re-analysis of the deposited data

Results flagged for a closer look

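The difference in converted share between the minus and the plus strand ran in opposite directions for the 2 proteins, at -9.79 percentage points on average in the GTPBP8 libraries, where each of the 3 was negative, and at 1.89 percentage points in the AUH library. The AUH value lay above each GTPBP8 value (exact two-sided permutation test over the 4 libraries, p = 0.25, the smallest allowed), and it rests on 188 minus-strand reads. It became -2.61 when the median of the site shares was taken and 9.24 with sites of at least 10 reads.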

How the results depend on the processing

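All 60 alternative values for the 7 comparisons kept their direction and their side of the threshold of 0.05, which no comparison could pass since the smallest p is 0.25. Differences in the minus-strand share of reads are GTPBP8 less AUH, as for the share of sites, and the others are minus less plus strand in GTPBP8. The share of reads (-13.0 percentage points) became -4.32 with the deposited AUH totals and -1.78 with all site reads as the denominator. That larger denominator lowers both shares, to 0.161% for the GTPBP8 mean and 1.94% for AUH. The AUH share was then 12.0 times the GTPBP8 mean, in place of 4.63 times. Keeping only sites at or above the AUH minimum, an alternative chosen after the data were seen, changed the share of sites from 20.3 to 7.08 and the overlap between replicates from -29.6 to -16.3. Weighting sites by reads changed the T share from 3.42 to 1.64. Leaving out each GTPBP8 replicate in turn gave -13.99 to -12.55 for the share of reads, 16.45 to 22.7 for the share of sites, -3.97 to -3.51 for the log2 fold of medians and -10.2 to -9.16 for the converted share. It gave -45.9 to -4.58 for the overlap between replicates, -67.6 to -56.1 for the overlap with AUH and 3.20 to 3.80 for the T share. A minimum of 2 conversion positions removed no site, so its values equal the main ones. In the AUH list, 23 of 85 mtDNA sites gave more conversion positions than they have T, with 0 of 14 on the minus strand. This minimum was therefore no test of the AUH sites. With sites of at least 10 reads, the AUH log2 fold of medians was 0.71 in place of -0.46, and the cause was not tested. The edgeR comparison of reads per gene was not run, since 0 minus-strand genes had a site in every library. GTPBP8 and AUH libraries could not be paired, because AUH is 1 library, while the sign-flip tests compared strands within each GTPBP8 library. The depth of the AUH list, 188 minus-strand reads, limits each AUH value.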
